A study of Mus musculus with 80 samples.

Results

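The genes of DNA replication were followed across 80 mammary tumours of mice that carried the MMTV-Myc transgene, in which the mouse mammary tumour virus promoter drives the Myc oncogene in mammary epithelium. The tumours came from mice that were null for E2F1, null for E2F2, heterozygous for E2F3, or wild type for the E2F genes, with 20 tumours in each background. All 4 groups shared the transgene and the FVB strain, and all tumours were flash frozen; the sources used here do not state the age of the mice or how the E2F alleles were made. The list held 44 genes, chosen by name for their role at the replication fork. A probe set that carried that gene alone was found for 42 of the 44, the exceptions being Gins2 and Chaf1a, and all 42 passed the filter on dim signals, out of 8756 genes that did so and 12393 genes on the array. For each gene the brightest of its probe sets was used, and all levels below are log2(signal + 5) of 1-colour Affymetrix arrays.

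DNA is copied once per cell cycle in steps that these genes serve in turn. In G1 phase the origin recognition complex, with Cdc6 and Cdt1, loads the ring-shaped Mcm helicase onto origins, which is called licensing. In S phase the Cdc7-Dbf4 kinase, Cdc45, the GINS complex and Mcm10 switch that helicase on, primase and the polymerases copy the strands, and the sliding clamp Pcna, placed by the Rfc loader, keeps the polymerases on the template. E2F transcription factors, released from the retinoblastoma protein in late G1, bind the promoters of many of these genes, with E2F1, E2F2 and E2F3 classed as activators. Myc also promotes entry into S phase.

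The arrays had been scaled to a common mean, and pairs of arrays had a median correlation of 0.949. The E2f1 probe set with the higher mean had 5.85, 7.06 and 7.48 (lowest, median, highest) in E2F1 null tumours, against 6.53, 7.11 and 7.63 in wild type, and the other had 5.38, 6.42 and 7.44, against 5.70, 7.06 and 7.66. The E2f3 probe set had 5.58, 6.73 and 6.99 in E2F3 heterozygous tumours, against 6.01, 6.71 and 7.19 in wild type. These ranges overlapped, so no probe set told the genotype of every single tumour. The dimmer E2f1 probe set had a mean of 6.38 (SD 0.45) in E2F1 null tumours. In E2F2 null, E2F3 heterozygous and wild-type tumours its mean was 7.13, 7.22 and 6.98 (SD 0.44 in wild type). The brighter one had 6.95 in E2F1 null and 7.13 in wild-type tumours. The sources used here do not say where the probe sets lie relative to the altered part of each gene. No E2f2 probe set was used. Myc signal had medians of 13.56, 13.56, 13.47 and 13.52 in E2F1 null, E2F2 null, E2F3 heterozygous and wild-type tumours. The epithelial markers Epcam, Cdh1, Krt8, Krt18, Cldn3 and Cldn7 were above the filter on 80 of 80 arrays and Krt19 on 79. Markers of fibroblasts varied widely, with a fibroblast score (the mean over 11 marker genes, each minus its own mean) from -1.88 to 3.07. The replicate numbers below only name tumours. Another number in the labels was shared by 46 of the arrays, 53 numbers in all. Its meaning is not given, and tumours that share it may come from 1 animal, so it entered each fit as a random block. There were 16 such numbers in E2F1 null, 11 in E2F2 null, 10 in E2F3 heterozygous and 16 in wild-type tumours. Nothing in the labels says that other tumours came from separate animals, so p-values measure the spread between these samples.

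The 42 genes moved together from tumour to tumour. For each tumour the members' mean was taken, after subtracting from each gene its own mean over the 80 tumours. It ran from -0.77 in E2F1 null replicate 6 to 0.58 in E2F2 null replicate 4, a range of 1.35 on the log2 scale. Its lowest, median and highest values were -0.77, 0.07 and 0.45 in E2F1 null tumours, -0.39, 0.11 and 0.58 in E2F2 null tumours, -0.70, 0.00 and 0.45 in E2F3 heterozygous tumours, and -0.74, -0.02 and 0.53 in wild-type tumours. The 4 groups overlapped over most of this range, and the spread within each was far wider than the gaps between their medians. The 3 lowest tumours, E2F1 null replicate 6, wild type replicate 18 and E2F3 heterozygous replicate 13 (-0.77, -0.74 and -0.70), had fibroblast scores of 3.07, 1.97 and 2.32. The next lowest, E2F1 null replicate 13 (-0.56), had a score of -0.19. Over the 80 tumours the members' mean and this score had an r of -0.57 by Pearson and -0.49 by Spearman. Pearson's r ran from -0.27 within E2F2 null to -0.70 within E2F3 heterozygous tumours. In bulk tumour RNA, fewer cycling tumour cells and less RNA per cell cannot be told apart. Tumours that shared a label number differed by 0.07 to 0.68 in this mean.

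**Figure D1:**
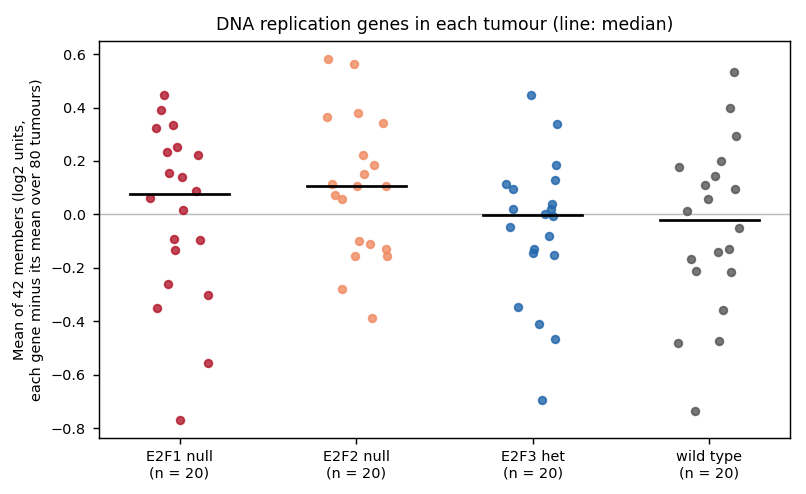
Mean of the 42 DNA replication genes in each tumour (log2 units, each gene minus its mean over 80 tumours), by genotype, with a line at each median. The groups overlap, with medians of 0.07 in E2F1 null, 0.11 in E2F2 null, 0.00 in E2F3 heterozygous and -0.02 in wild-type tumours; points are spread sideways only for visibility.

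Each gene was set against the mean of the other 41. Pearson's r over the 80 tumours had a median of 0.77, and 33 of the 42 genes exceeded 0.7. These correlations are descriptions: all genes share the arrays and their scaling, and some tumours share a label number. The genes with the highest r were Gins1 (0.92), a GINS subunit of the active helicase, Rpa2 (0.91), part of the protein that coats single-stranded DNA, and Mcm10 (0.91). Pcna, the clamp, had 0.89, and the loader subunit Rfc5 had 0.90. Lower values were found for Slbp, which binds the stem-loop of histone mRNAs (0.63), for the origin subunit Orc2 (0.58) and for the thymidylate synthase gene Tyms (0.19). The median r was close to this within each background, 0.80 in E2F1 null, 0.81 in E2F2 null, 0.80 in E2F3 heterozygous and 0.82 in wild-type tumours. After subtracting the genotype means it was 0.77, and without E2F1 null replicate 6 it was 0.76.

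Among the 861 pairs of genes the median r was 0.63, 79.3% exceeded 0.5, and only the pair Pold2 and Tyms was below 0 (-0.02). The highest pair was Rfc4 and Rfc5 (0.91), 2 subunits of the clamp loader, followed by Rfc5 with the primase subunit Prim1 (0.91) and by Gins1 with Rfc5 (0.90). Pairs within a role and pairs across roles are given side by side, without a test. The median r was 0.67 within origin licensing and 0.63 between licensing genes and the other members. Within the polymerases and primase it was 0.58, and 0.60 with the other roles. The clamp and its loader had 0.76 within the role and 0.65 outside it, while the genes of chromatin behind the fork had 0.53 within and 0.61 outside. The members' SD over tumours (median 0.36) was close to that of all tested genes (0.36).

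**Figure D2:**
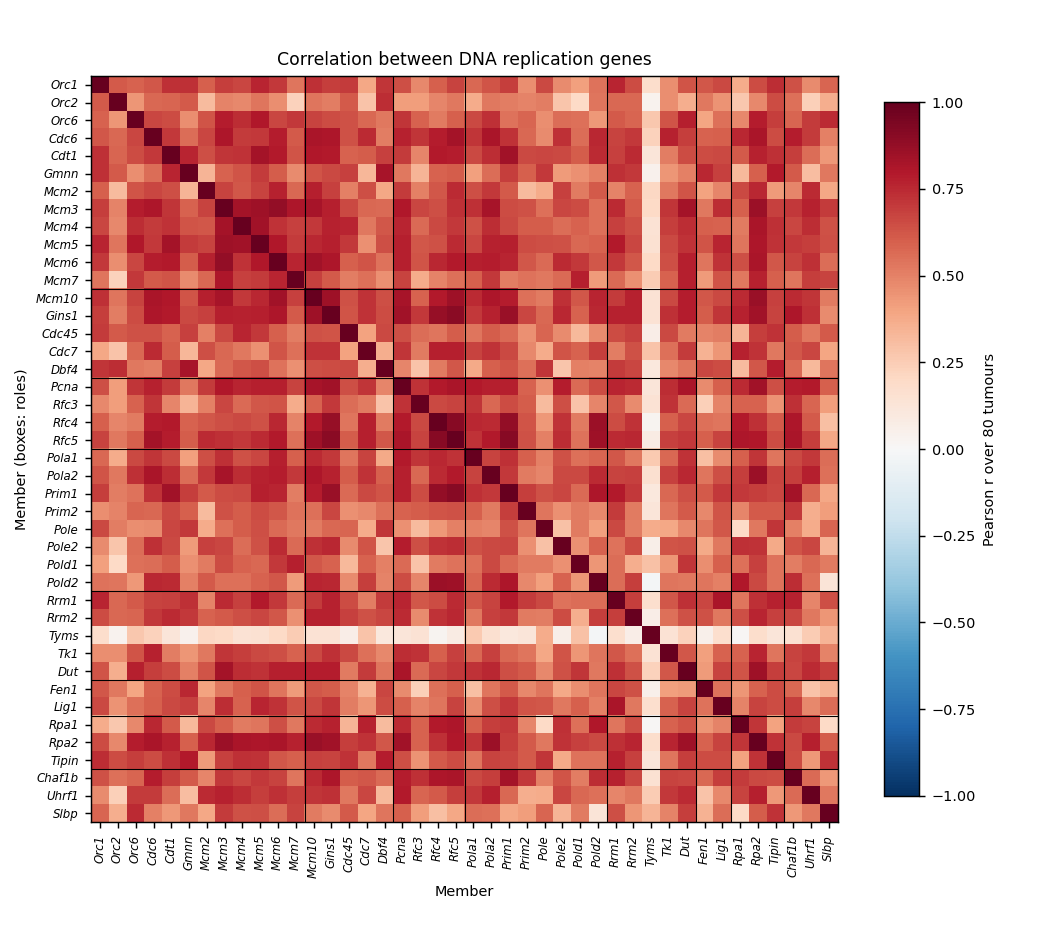
Pearson r over 80 tumours for every pair of the 42 members, ordered by role (lines divide the roles). Most pairs are red (median 0.63); the pale row and column are Tyms, whose r with the mean of the others was 0.19.

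Outside the list, the 6 of 8714 tested genes most like the members' mean were Aurkb (r = 0.90), Hells (0.90), Cdk1 (0.90), Nup107 (0.88), Bub1 (0.88) and Ercc6l (0.88). Aurkb, Cdk1 and Bub1 are kinases of mitosis, and Hells is a chromatin remodeller. There were 170 genes with r above 0.7. Of the E2F and pocket protein genes measured, E2f8 (0.78) and the pocket protein gene Rbl1 (0.79) had the highest r, while E2f1 had 0.30, E2f3 had 0.25 and Rb1 had -0.14. The E2f1 value used the brighter probe set, with means of 6.95 in E2F1 null and 7.13 in wild-type tumours. Tumours of every background, the mutant ones included, entered these values. The mean signals of E2f1 (7.11) and E2f3 (6.73) lay not far above the filter at 6.32. These values therefore do not show whether the members follow E2f1 or E2f3. Among S phase cyclins and kinases, cyclin A2 (Ccna2) had 0.87, cyclin E2 (Ccne2) had 0.58 and cyclin D1 (Ccnd1) had 0.21.

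Promoters are shown for 6 members whose values are described below, as windows of 250 bases before to 50 bases after the annotated start, from RefSeq on GRCm38.p6. Capitals mark matches to the core of the E2F site, searched on both strands as TTCCCGC or TTCGCGC or TTGCCGC or TTGGCGC; matches that overlap run together. The helicase subunits Mcm6 (chr1:128359656-128359955, minus strand), Mcm5 (chr8:75109259-75109558, plus strand) and Mcm2 (chr6:88898731-88899030, minus strand) show a window with 5 matches, with 3 and with none. Cdt1 (chr8:122567765-122568064, plus strand), Prim1 (chr10:128014965-128015264, plus strand) and Chaf1b (chr16:93883651-93883950, plus strand) were picked from the members that recur among the smallest p-values below. Pold2 and Rfc4 recur there as well and are not shown. The Pold2 windows held 0 matches and the Rfc4 window held 1. The 6 promoters shown do not stand for all members, whose share with a match is given below.
Mcm6: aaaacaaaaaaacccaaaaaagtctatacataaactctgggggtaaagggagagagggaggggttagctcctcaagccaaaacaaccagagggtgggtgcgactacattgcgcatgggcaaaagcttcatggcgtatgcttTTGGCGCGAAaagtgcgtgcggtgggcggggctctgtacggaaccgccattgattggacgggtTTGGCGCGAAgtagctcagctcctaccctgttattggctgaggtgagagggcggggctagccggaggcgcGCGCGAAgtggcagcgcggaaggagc
Mcm5: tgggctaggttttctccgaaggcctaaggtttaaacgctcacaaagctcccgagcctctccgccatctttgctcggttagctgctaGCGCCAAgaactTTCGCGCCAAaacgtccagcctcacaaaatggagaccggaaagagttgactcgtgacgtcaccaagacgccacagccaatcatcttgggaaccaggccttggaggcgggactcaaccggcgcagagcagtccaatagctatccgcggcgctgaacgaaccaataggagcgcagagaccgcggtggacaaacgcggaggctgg
Mcm2: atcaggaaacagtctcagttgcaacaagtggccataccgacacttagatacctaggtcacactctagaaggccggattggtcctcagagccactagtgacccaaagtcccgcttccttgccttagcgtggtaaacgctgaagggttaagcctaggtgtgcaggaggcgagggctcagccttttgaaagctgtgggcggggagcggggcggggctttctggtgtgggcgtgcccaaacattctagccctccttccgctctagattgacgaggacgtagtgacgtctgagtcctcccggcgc
Cdt1: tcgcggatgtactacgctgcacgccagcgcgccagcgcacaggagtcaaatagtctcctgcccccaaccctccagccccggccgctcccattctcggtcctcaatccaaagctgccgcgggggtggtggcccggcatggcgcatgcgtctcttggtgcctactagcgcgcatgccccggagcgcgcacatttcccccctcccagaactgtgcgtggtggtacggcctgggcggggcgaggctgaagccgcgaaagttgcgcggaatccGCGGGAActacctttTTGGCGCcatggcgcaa
Prim1: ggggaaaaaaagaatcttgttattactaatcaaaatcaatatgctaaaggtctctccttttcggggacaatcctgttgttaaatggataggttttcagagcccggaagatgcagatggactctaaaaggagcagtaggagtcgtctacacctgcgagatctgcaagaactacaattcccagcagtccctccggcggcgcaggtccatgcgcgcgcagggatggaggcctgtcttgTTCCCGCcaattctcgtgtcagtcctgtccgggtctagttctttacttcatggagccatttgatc
Chaf1b: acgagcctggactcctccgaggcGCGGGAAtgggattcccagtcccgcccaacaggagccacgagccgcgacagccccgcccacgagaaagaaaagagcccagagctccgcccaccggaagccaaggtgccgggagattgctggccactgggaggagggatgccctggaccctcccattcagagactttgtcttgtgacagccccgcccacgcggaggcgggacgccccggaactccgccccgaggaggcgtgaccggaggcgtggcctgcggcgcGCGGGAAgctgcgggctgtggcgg

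A promoter was matched for 37 of the 44 genes, with 45 windows in all; Gins1, Gins2, Gmnn, Mcm4, Pole, Prim2 and Tipin had none in the table used. The E2F core was found in 26 of the 45 windows (57.8%), and at 22 of the 37 genes (59.5%). Of all 32851 promoter windows, 9.57% held it, and of 7092 tested genes with a window, 19.9% did. The members' matches lay from -235 to 42 relative to the start, with a median at -35. In Mcm6 as printed above, 4 of the 5 matches form overlapping pairs before the start and 1 lies after it. CCAAT on either strand was found at 59.5% of the genes, in 37.4% of all windows and at 42.7% of tested genes; 15 member windows held both motifs, and in 2 the matches overlapped. The E-box CACGTG, the best known site of Myc with Max, was found at 6 of the 37 genes (16.2%), in 7.15% of all windows and at 12.1% of tested genes. These matches are letters in a window and were not tested for binding or enrichment. The 21 measured genes with the E2F core had a median r of 0.79 with the mean of the other members, and the 15 measured genes with a window but no match had 0.75.

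Each E2F background was then compared with wild type. This asked whether the signal of these genes in established tumours differed with loss of E2F1, loss of E2F2 or heterozygosity for E2F3. No member was called in any of the 3 comparisons by limma at an adjusted p under 0.05. The same 20 wild-type tumours serve the 3 comparisons, so the values are given side by side and their likeness is not a result. The members moved together over the tumours, so counts of members, here and in the slopes below, are not counts of separate observations.

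In E2F1 null tumours 0 members were called in either direction, where 0.0228% of all tested genes were called higher and 0.0228% lower. The members' log2 fold changes over wild type ran from -0.10 to 0.18, with a median of 0.07, beside 0.01 over all tested genes, and 34 of 42 were above 0. None had an unadjusted p under 0.05, beside 1.28% of all genes. The member with the smallest p was Cdt1, the licensing factor that brings the Mcm helicase to origins. Its signal was 10.54, 11.58 and 12.32 (lowest, median, highest) in E2F1 null tumours, against 10.48, 11.40 and 11.88 in wild type. The groups overlapped, with 3 of the 20 E2F1 null tumours higher than any in wild type. The log2 fold change was 0.18 (SE 0.11, unadjusted p = 0.0963, adjusted p = 0.9997).

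Mcm7, a helicase subunit, had 11.02, 12.10 and 12.49 in E2F1 null tumours, against 11.35, 11.999 and 12.22 in wild type, with 6 tumours higher than any in wild type. Its log2 fold change was 0.12 (SE 0.09, unadjusted p = 0.203). The kinase gene Cdc7, which starts S phase with Dbf4, had 8.10, 8.82 and 9.52, against 7.81, 8.63 and 9.59 in wild type, with a fitted log2 difference of 0.18 (SE 0.14, unadjusted p = 0.207). The 2 groups overlapped over most of their range for Cdc7. By role, the medians were 0.09 for licensing (11 of 12 above 0), 0.05 for helicase activation, 0.10 for the clamp and loader, 0.07 for the polymerases and primase (8 of 8 above 0) and 0.00 for nucleotide supply. Taken over all 42 genes, the 95% intervals reached no lower than -0.39 (Tk1) and no higher than 0.46 (Uhrf1), so for each member a fall below 0.766-fold or a rise above 1.38-fold lay outside its interval.

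E2F1 null replicate 6, the tumour with the lowest members' mean and the highest fibroblast score, bore on this comparison. Without it the members' median log2 fold change was 0.12, with 35 of 42 above 0. This omission was 1-sided, and leaving out the lowest tumour of a group raises its mean. Low wild-type tumours stayed in, such as replicate 18 (members' mean -0.74, fibroblast score 1.97) and replicate 6 (-0.48 and 2.71). With Mki67 signal as a covariate the median was 0.13, and with the fibroblast score it was 0.05; 0 members were called under each. The fibroblast score itself had -1.88, -0.33 and 3.07 in E2F1 null tumours, against -1.53, 0.02 and 2.71 in wild type, and its part in the members' values was not tested beyond these fits.

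In E2F2 null tumours 0 members were called, where 0.0114% of all tested genes were called higher and 0.0114% lower. Here 40 of 42 members had a log2 fold change above 0, with a median of 0.19 (1.14-fold), beside -0.01 over all tested genes. An unadjusted p under 0.05 was reached by 12 of 42 members (28.6%), all with higher signal in E2F2 null tumours, and by 6.14% of all genes. The smallest adjusted p among the members was 0.787. As the members moved together (median r of 0.77 with the mean of the others), these 40 and 12 genes are not separate observations. The members' mean averaged 0.10 (SD 0.26) over E2F2 null tumours and -0.05 (SD 0.31) over wild-type tumours. Of these 12, 6 were licensing genes (Cdt1, Mcm3, Mcm5, Mcm6, Gmnn and Orc2). The smallest p was that of Prim2, the large subunit of primase, which lays the RNA primers. Prim2 had 8.36, 8.89 and 9.64 in E2F2 null tumours, against 7.78, 8.66 and 8.94 in wild type. For this gene 8 of 20 E2F2 null tumours were higher than any in wild type, the most of any member. The log2 fold change was 0.26 (SE 0.11, unadjusted p = 0.0205, adjusted p = 0.787).

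Cdt1 had 11.06, 11.59 and 12.18 in E2F2 null tumours, against 10.48, 11.40 and 11.88 in wild type, with a fitted log2 difference of 0.26 (SE 0.11, unadjusted p = 0.0261). Chaf1b, a subunit of the chromatin assembly factor that places histones behind the fork, had 8.61, 9.03 and 9.51, against 8.13, 8.81 and 9.47 in wild type, with a fitted log2 difference of 0.24 (SE 0.11, unadjusted p = 0.0297). In both genes the low end of the range was higher in E2F2 null tumours, and the high ends lay closer together. The 2 members at or below 0 were Mcm2, at -0.01 (SE 0.15), and Tyms, at -0.23 (SE 0.13). The 95% intervals reached from -0.49 (Tyms) to 0.60 (Tk1), so a rise of more than 1.52-fold lay outside the interval of every member. The median was 0.15 with Mki67 signal as a covariate and 0.17 with the fibroblast score as a covariate, each with 38 of 42 above 0. In the mitosis list 0 of 21 genes were called, 19 of 21 were above 0 and the median was 0.21. Markers of other cell types had 0 called as well: endothelial markers were above 0 in 0 of 7 genes (median -0.09), macrophage markers in 1 of 9 (median -0.18), fibroblast markers in 4 of 11 (median -0.08) and epithelial markers in 6 of 7 (median 0.11). The macrophage score over tumours had -0.76, -0.18 and 0.46 in E2F2 null tumours, against -1.17, -0.08 and 1.93 in wild type, and the endothelial score had -0.70, -0.22 and 0.59, against -0.61, -0.10 and 1.56. The part of the endothelial, macrophage and epithelial markers in the members' values was not tested.

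Orc2 showed that probe sets of 1 gene can differ on this contrast. The probe set used had a log2 fold change of 0.22 in E2F2 null tumours over wild type, a dimmer one had 0.31, and the remaining one had -0.03. Across the 20 members with further probe sets above the filter, the 26 extra probe sets had a median r of 0.83 with the one used. The lowest was the second Dut probe set (0.38), for the enzyme that keeps uracil out of DNA.

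In E2F3 heterozygous tumours 0 members were called, and 0% of all tested genes were called in either direction. The members divided into 23 above 0 and 19 below, with a median log2 fold change of 0.01, the same as over all tested genes (0.01). None had an unadjusted p under 0.05. Pole, the catalytic subunit of the leading strand polymerase, had 7.98, 8.44 and 8.97 in E2F3 heterozygous tumours, against 7.68, 8.47 and 8.93 in wild type. Its fitted log2 fold change was 0.17 (SE 0.12, unadjusted p = 0.147) while its median was slightly lower in the heterozygous tumours; the ranges overlapped almost wholly. The DNA ligase gene Lig1 had 8.87, 9.54 and 10.10, against 8.20, 9.37 and 10.22 in wild type, with a fitted log2 difference of 0.16 (SE 0.13). Mcm6 had 10.67, 11.48 and 11.90, against 10.75, 11.31 and 11.97 in wild type, with a fitted log2 difference of 0.14 (SE 0.12). The fibroblast markers were above 0 in 11 of 11 genes in E2F3 heterozygous tumours over wild type, with a median of 0.38 and 0 called. Skeletal muscle markers were above 0 in 8 of 8, with a median of 0.91 and 0 called. Their mean signals ran from 5.32 (Actn3, above the filter on 18 arrays) to 8.06 (Acta1, on 58), where the filter lay at 6.32. Signals so near the filter limit what this median can say. The part of muscle in the members' values was not tested. With the fibroblast score as a covariate, 33 of 42 members were above 0 and the median was 0.08; 0 were called.

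**Figure D3:**
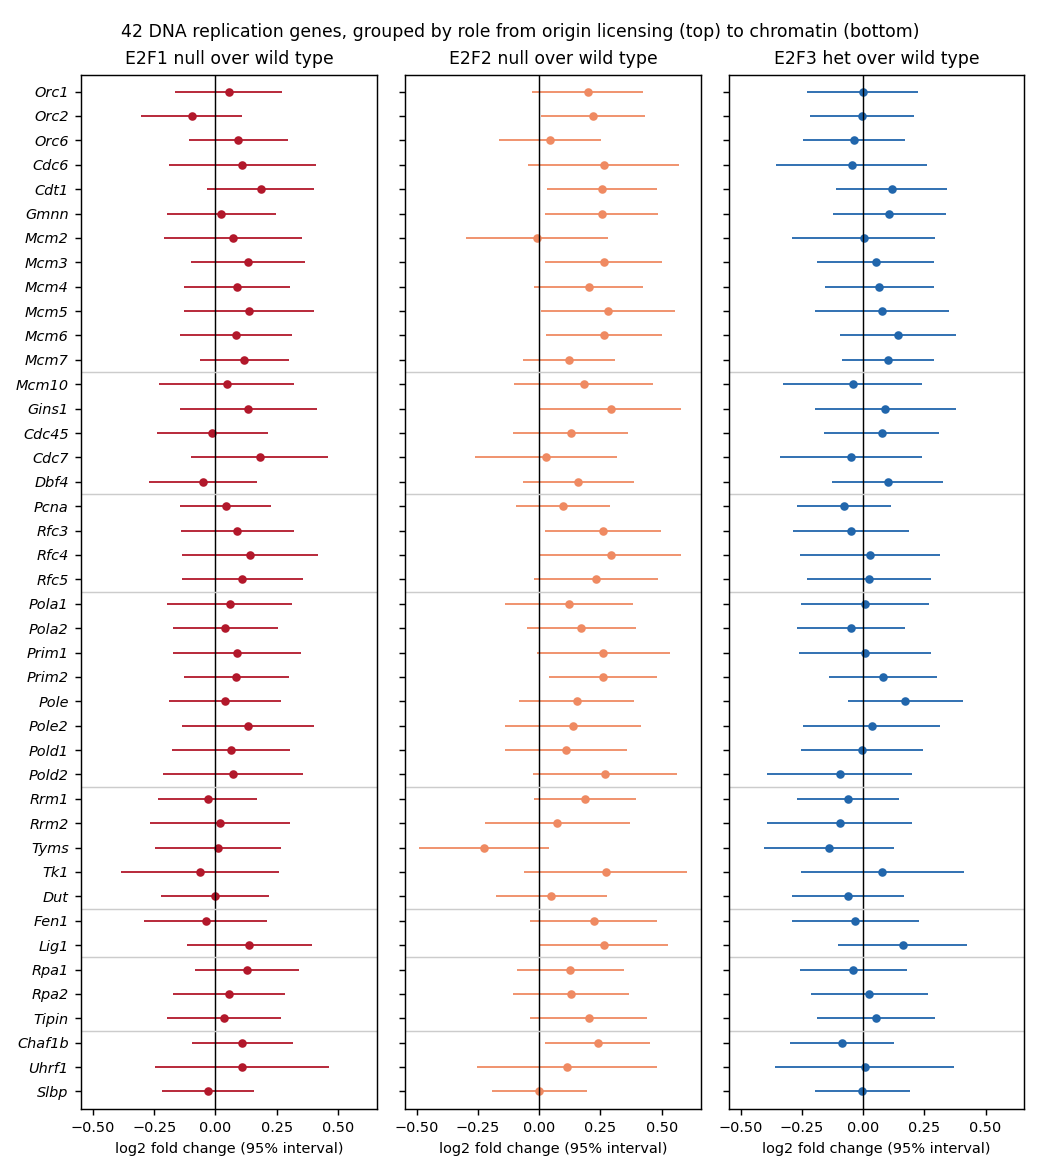
Log2 fold change of each member over wild type, in 3 panels (null for E2F1, null for E2F2, heterozygous for E2F3), with 95% intervals from limma (20 tumours a group), grouped by role. In E2F2 null tumours 40 of 42 points lie above 0 and 12 intervals exclude 0 before adjustment; in the other comparisons every interval includes 0.

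A moderated F test asked whether a member differed among any of the 4 backgrounds. It called 0 members, where 0.148% of all tested genes were called. The smallest p-values were those of Chaf1b (unadjusted p = 0.0255), Orc2 (0.0298) and the loader subunit Rfc3 (0.0624), each with an adjusted p of 0.992. Orc2 had medians of 8.62, 8.90, 8.67 and 8.75 in E2F1 null, E2F2 null, E2F3 heterozygous and wild-type tumours, and Rfc3 had 8.83, 9.02, 8.61 and 8.80. In simulated data for the E2F2 null comparison, 200 of 8756 genes were changed. The fit recovered 11% of those changed by 0.25 on the log2 scale. It recovered 59% of those changed by 0.5 and 88% of those changed by 1. Recovery was not tested for the members themselves, which moved together over the tumours.

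The brightest member of each role gives its range over the tumours. Mcm7, of the helicase, is given above. Dbf4, the activator of Cdc7, had medians of 9.92, 9.9998, 9.95 and 9.97 in E2F1 null, E2F2 null, E2F3 heterozygous and wild-type tumours, and ran from 8.88 to 10.57. Pcna had medians of 12.56, 12.59, 12.39 and 12.48, and ran from 11.69 to 13.12, a 2.69-fold range. In both genes the gaps between medians were small beside the range over tumours. Rrm2, the regulated subunit of ribonucleotide reductase, had medians of 11.50, 11.42, 11.33 and 11.43, and a range of 3.96-fold. Fen1, the nuclease that trims Okazaki fragments, had 10.23, 10.48, 10.29 and 10.26. Rpa1 had 11.70, 11.69, 11.58 and 11.57. None of these was called, and the groups overlapped in each. The widest range of any member was that of Uhrf1, which directs DNA methylation to newly copied strands, at 5.74-fold, followed by Mcm5 at 5.29-fold and the polymerase delta subunit Pold2 at 5.26-fold. The narrowest was Chaf1b at 2.65-fold.

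The members were next set against Mki67, a marker of cycling cells that is not on the list. Mki67 itself had medians of 11.54, 11.70, 11.66 and 11.59 in E2F1 null, E2F2 null, E2F3 heterozygous and wild-type tumours. With genotype as a covariate, limma called a positive slope for 41 of 42 members at an adjusted p under 0.05, and a negative slope for 0, where 24% of all tested genes had a called positive slope and 23.9% a negative one. The members' median slope was 0.65 log2 units per log2 unit of Mki67, beside 0.00 over all tested genes. All 12 licensing genes, all 5 of helicase activation, all 4 of the clamp and loader and all 8 polymerase and primase genes were called. Every member had a positive slope in every single background, from a median of 0.44 in E2F2 null tumours to 0.81 in wild type. With 20 tumours a fit, the number called was 26 within E2F1 null, 0 within E2F2 null and 16 within E2F3 heterozygous and 35 within wild-type tumours; whether the slopes differ between backgrounds was not tested.

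Prim1, the catalytic subunit of primase, had the smallest p, with a slope of 0.97 (SE 0.08, adjusted p = 8.31e-16). Its signal was 9.10, 10.54 and 11.02 in E2F1 null tumours, 9.93, 10.65 and 11.13 in E2F2 null tumours, 9.63, 10.38 and 11.17 in E2F3 heterozygous tumours, and 9.35, 10.40 and 11.11 in wild type. Cdt1 followed with 0.76 (SE 0.08, adjusted p = 2.80e-13) and Rfc5 with 0.83 (SE 0.09, adjusted p = 1.69e-12). Rfc5 had medians of 10.19, 10.33, 10.11 and 10.14 in E2F1 null, E2F2 null, E2F3 heterozygous and wild-type tumours, and ran from 8.98 to 10.92. The weakest calls were Orc2 (0.36, SE 0.10, adjusted p = 0.00174) and Rfc3 (0.30, SE 0.11, adjusted p = 0.0270). Rfc3 lost its call without E2F1 null replicate 6 (adjusted p = 0.0627), with 1 mean per label number (0.0566) and with the fibroblast score as a further covariate (0.542).

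Tyms was the member without a call, with a slope of 0.24 (SE 0.13, adjusted p = 0.126). Its only probe set above the filter had a mean of 6.43, close to the filter at 6.32, and was above it on 51 of 80 arrays. It had 5.59, 6.61 and 7.26 in E2F1 null tumours, 5.15, 6.30 and 7.23 in E2F2 null tumours, 5.78, 6.38 and 6.86 in E2F3 heterozygous tumours, and 5.85, 6.47 and 7.23 in wild type. A signal so near the filter limits what can be said of Tyms in every comparison here. Its slope was called under quantile normalization, at 0.53, and with the fibroblast score as a further covariate, at 0.50.

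A list of other replication factors, outside the 44, was followed in the same fit. Of 37 tested, 30 had a called positive slope on Mki67 and 1 a negative one, which was Pold4, a small subunit of polymerase delta. Their mean followed the members' mean with r of 0.97 over the 80 tumours. Of 20 mitosis genes, 19 were called positive, with a median slope of 0.84. Markers of other cell types had called negative slopes on Mki67, 11 of 11 for fibroblasts (median -1.43), 9 of 9 for macrophages (median -1.07) and 6 of 7 for endothelium (median -0.64). Of the epithelial markers 2 of 7 had a called negative slope and 0 a positive one. The part of the macrophage, endothelial and epithelial markers in the members' slopes was not tested. With the fibroblast score as a further covariate, 36 of 42 members had a called positive slope, beside 11.6% of all tested genes. Of these 36, 35 were among the 41 above, and the members' median slope was 0.52. That covariate was chosen after the data were seen.

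The fibroblast score was then used in place of Mki67. With genotype as a covariate, limma called a negative slope on the fibroblast score for 39 of 42 members and a positive one for 0, where 28.7% of all tested genes had a called negative slope and 28.5% a positive one. The median slope was -0.17 log2 units per unit of the score, beside -0.01 over all tested genes. Pold2 had the smallest p (-0.33, SE 0.04, adjusted p = 3.27e-12), then Rfc4 (-0.31, SE 0.04) and Pole2, a subunit of polymerase epsilon (-0.30, SE 0.04). Pold2 had 8.70, 9.94 and 11.09 in E2F1 null tumours, 9.11, 10.11 and 10.84 in E2F2 null tumours, 8.76, 9.79 and 10.49 in E2F3 heterozygous tumours, and 8.72, 9.90 and 11.02 in wild type. Pole2 had medians of 9.57, 9.63, 9.55 and 9.36 in the same order of backgrounds. The members without a call were Tyms (0.08), Pole (-0.06) and Slbp (-0.01). Slbp had medians of 10.49, 10.48, 10.47 and 10.58, and ran from 9.74 to 11.31. Within single backgrounds 13 members were called negative in E2F1 null, 2 in E2F2 null, 20 in E2F3 heterozygous and 29 in wild-type tumours. Of all tested genes, 11.6%, 6.32%, 11.3% and 15.7% were called positive in these fits, in the same order. The share of all genes called negative in them is not given here, so these counts are not compared between backgrounds.

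Myc signal gave a different result. Limma called a positive slope on Myc for 6 of 42 members (14.3%) and a negative one for 0, where 23.6% of all tested genes had a called positive slope and 21.9% a negative one. How the members' share stood to that of all genes depended on the setting: with quantile normalization 13 of 42 were called positive, beside 24.5% of all genes, and with 1 mean per label number 24 of 42, beside 25.1%. The 6 were Pold2, Rfc4, Prim1, Cdt1, Rfc5 and Pole. Pold2 had the steepest slope, 0.78 (SE 0.17, adjusted p = 0.000125), then Rfc4 with 0.67 (SE 0.17, adjusted p = 0.000969) and Prim1 with 0.62 (SE 0.16, adjusted p = 0.00112). Rfc4 had 8.96, 10.38 and 10.95 in E2F1 null tumours, 9.80, 10.55 and 11.01 in E2F2 null tumours, 9.25, 10.18 and 11.16 in E2F3 heterozygous tumours, and 9.25, 10.24 and 11.08 in wild type. At the other end, Rfc3 (-0.04), Mcm3 (0.01) and Tyms (0.00) had slopes near 0. Mcm3 had 9.28, 10.35 and 10.80 in E2F1 null tumours, 9.70, 10.31 and 11.03 in E2F2 null tumours, 9.40, 10.18 and 10.57 in E2F3 heterozygous tumours, and 9.42, 10.12 and 10.68 in wild type.

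The Myc calls changed when 1 or 2 tumours were left out. E2F1 null replicate 6 had the lowest Myc signal, 12.48, where the median of all tumours was 13.53. Without it, positive calls were left for Pold2, Prim1 and Rfc4, and Slbp was called negative. Without the 2 tumours farthest from the median of Myc, positive calls were left for Pold2 and Rfc4. Of all tested genes, 18.5% and 17.5% had a called positive slope in these 2 fits. Markers of other cell types also had called negative slopes on Myc, 11 of 11 for fibroblasts, 8 of 9 for macrophages and 6 of 7 for endothelium; the part of the last 2 in the members' slopes was not tested. With the fibroblast score as a further covariate, chosen after the data were seen, 0 members had a called positive slope, 4 had a called negative one (Cdc45, Orc6, Slbp and Tk1), and the median slope was -0.13. The correlation of the members' mean with Myc over the 80 tumours was 0.20 by Pearson and -0.02 by Spearman.

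**Figure D4:**
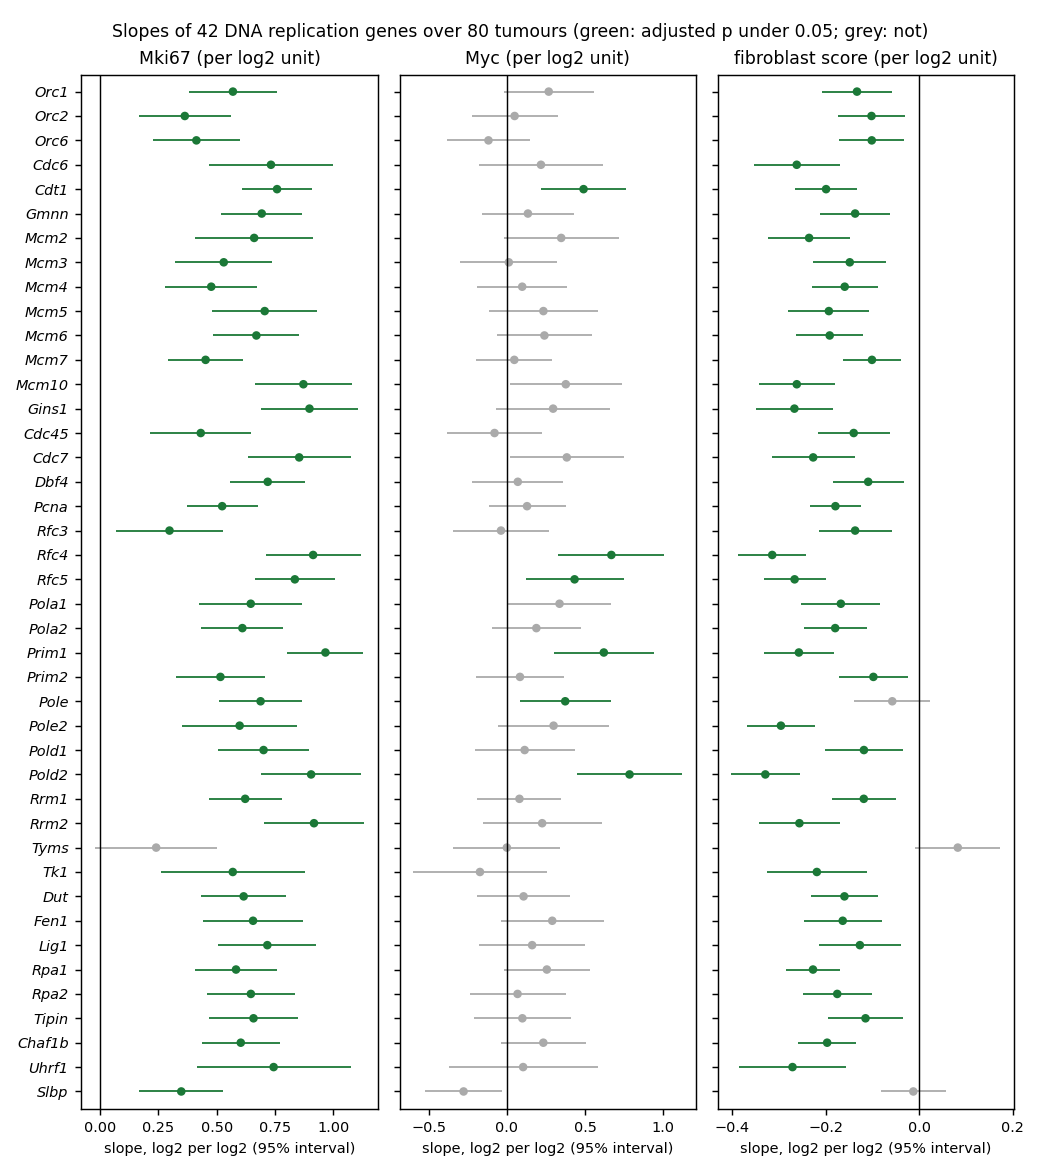
Slope of each member on Mki67 signal, on Myc signal and on the fibroblast score over 80 tumours, with genotype as a covariate and 95% intervals from limma; green marks an adjusted p under 0.05. Slopes on Mki67 are positive (41 of 42 called), slopes on the fibroblast score are mostly negative (39 of 42 called), and 6 of 42 slopes on Myc are called.

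Members were also set against the other genes of their own chromosome. Mcm2 to Mcm7 are the subunits of 1 ring and are encoded on 5 chromosomes, with Mcm3 and Mcm6 both on chromosome 1. Mcm3 had an r of 0.91 with the mean of the other 5 subunits, Mcm6 0.89, Mcm5 0.87, Mcm4 0.83, Mcm7 0.78 and Mcm2 0.73. The difference between Mcm2 and the mean of the other 5, each gene centred, ran from -0.53 to 0.56 log2 units over the tumours. That difference had an r of 0.89 with the mean of 450 other genes of chromosome 6, taken relative to all tested genes. The same r was 0.94 within E2F1 null, 0.93 within E2F2 null, 0.77 within E2F3 heterozygous and 0.89 within wild-type tumours. With the other Mcm2 probe set it was 0.76. The chromosome 6 mean ran from -0.20 to 0.29, and the slope of that difference on it was 1.53.

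Mcm2 signal itself was 9.02, 10.10 and 10.90 in E2F1 null tumours, 9.49, 9.86 and 10.82 in E2F2 null tumours, 9.16, 9.96 and 10.65 in E2F3 heterozygous tumours, and 9.04, 10.02 and 10.93 in wild type. The chromosome 6 mean had medians of -0.05, -0.13, -0.09 and 0.06 in these backgrounds. Mcm2 was 1 of the 2 members without a log2 fold change above 0 in E2F2 null tumours, the background with the lowest of these medians; whether this bears on its fold change was not tested. The 450 other tested genes of chromosome 6 had a median r of 0.50 between their signal and the chromosome mean. For Mcm2 that r was 0.69, and 72 of the 450 genes were higher. No member lies on chromosome 15, which together with chromosome 6 varied most between tumours (SD of the chromosome mean 0.21 and 0.17).

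**Figure D5:**
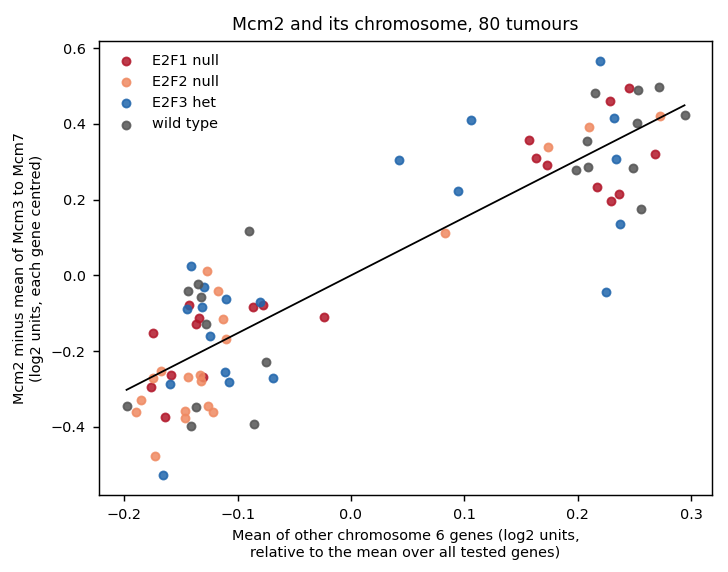
Mcm2 minus the mean of Mcm3 to Mcm7 (log2 units, each gene centred) against the mean of 450 other chromosome 6 genes relative to all tested genes, 1 point per tumour, with the fitted line. The points of all 4 backgrounds follow the line (r = 0.89), with tumours of each background at both ends.

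The same was looked for in every member, after subtracting the mean of the other members. The member's own chromosome ranked highest among 20 chromosomes for 12 of 42 genes and within the highest 3 for 21. These ranks were not taken for the other tested genes, so they do not show a trait particular to the members. The median r with the own chromosome was 0.23, beside -0.03 with the others. On chromosome 8, Mcm5 had 0.64, Orc6 had 0.57 and Cdt1 had 0.35. On chromosome 11, Pold2 had 0.61, Cdc6 0.51, Rpa1 0.39 and Tk1 0.31. Fen1 on chromosome 19 had 0.54, and Mcm4 on chromosome 16 had 0.49. Gmnn, which inhibits Cdt1, had 0.55 with chromosome 13 but 0.76 with another chromosome, and the fork protection gene Tipin had 0.51 with chromosome 9 but 0.57 with another. Values at or below 0 were found too, with -0.11 for Prim1 on chromosome 10, -0.27 for Pola2 on chromosome 19 and -0.32 for Rfc3 on chromosome 5. Without subtracting the other members, other genes of chromosomes 8 and 11 had median r of 0.25 and 0.26 with their own chromosome's mean. On that measure Pold2 had 0.53, Orc6 0.47, Mcm5 0.40, Tk1 0.33 and Cdt1 0.27. Of the other genes there, 62 of 756 were higher than Pold2, 296 of 756 higher than Tk1 and 215 of 455 higher than Cdt1. On other chromosomes Uhrf1 had 0.33 and Pola1 0.29, with 86 of 431 and 48 of 251 genes higher. Mcm6 had -0.36, Pola2 -0.40 and Rfc3 -0.28, with 460 of 487, 284 of 313 and 538 of 548 genes higher. The members thus lay on both sides of the other genes of their chromosomes. These are descriptions over arrays that share tumours and scaling, and copy number was not measured here.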

How the data were processed

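RNA of 80 tumours was hybridised to 1-colour arrays. The deposited files hold linear intensity per probe set, which the authors computed with MAS5 and Affymetrix Expression Console, per the submitters' processing notes (no version is stated in the sources used here). The mean of each array without its highest and lowest 2% lay between 499.95 and 499.96, so the arrays had been scaled to a common mean, and a change in total mRNA per cell cannot be seen. Values were taken as log2(value + 5), and a probe set was kept above 75.05, the 40th percentile, on at least 10 arrays. Probe sets of several genes (691) or none (1555) were not used; older symbols were matched by gene ID.

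Genotypes were taken from the labels. limma 3.58.1 with statmod 1.5.0 in R 4.3.3 was fitted to 8756 genes with the label number as a random block (correlation 0.159), with trended, robust moderation, two-sided tests and Benjamini-Hochberg adjustment over all tested genes at 0.05. This 1 correlation was used for every gene. Taken gene by gene, the correlation within label numbers had a median of 0.28 over the members, and it was 0.33 for the members' mean. The members' SEs, intervals and unadjusted p-values may therefore be too small. Slopes used the same fit with genotype as covariate, without the genes of the marker concerned. The fit was tested on simulated data. Correlations, promoter motifs and chromosomes were described without a test, in Python 3.11.15. The number of arrays limits the precision; over the members, SEs of log2 differences between genotypes had medians of 0.116 to 0.12. The members, lists, tests and alternatives were chosen with earlier results of these data known. Values by genotype are given for the 3 members with the smallest p in each comparison, the brightest member of each role, and the 3 members with the smallest and the 3 with the largest p for each slope. Alternatives were the pseudocount (1 and 32), the filter, quantile normalization, the block, all probe sets, covariates, single backgrounds and omitted arrays.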

Additional observations from a re-analysis of the deposited data

How the results depend on the processing

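Under every alternative run, 0 members were called in each mutant background against wild type. All genes called were 12 with every probe set on its own, 8 with Mki67 and 7 with the fibroblast score as covariate, and 2 under the stricter filter in E2F1 null tumours, against 4. They were 5 with every probe set and 4 with the fibroblast score in E2F2 null tumours, against 2, and 1 with every probe set in E2F3 heterozygous tumours, against 0. The F test called 8 with quantile normalization, 8 with 1 mean per label number and 26 with every probe set, against 13. The members' median in E2F3 heterozygous tumours was 0.09 with 1 mean per label number.

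Members called higher with Mki67 numbered 26 within E2F1 null, 0 within E2F2 null and 16 within E2F3 heterozygous tumours. Of all tested genes, 3.94%, 0.0685% and 4.36% were called higher in these fits. Members called lower with the fibroblast score numbered 13, 2 and 20 in these backgrounds. The share of all genes called lower in those fits is not given here. Fits within 1 background hold 20 tumours, against 80. Members called higher with Myc numbered 13 with quantile normalization, 24 with 1 mean per label number, 3 without E2F1 null replicate 6, 2 without the 2 farthest arrays, 0 with the fibroblast score, 1 within E2F1 null, 0 within E2F2 null, 0 within E2F3 heterozygous and 1 within wild-type tumours. Members called lower with Myc numbered 1 without E2F1 null replicate 6, 1 without the 2 farthest arrays and 4 with the fibroblast score. The cause of the higher counts was not tested.

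Slopes near 0 changed sign. On Myc, Tyms had 0.0087 with pseudocount 32, 0.316 with quantile normalization, 0.0041 with 1 mean per label number, 0.055 without E2F1 null replicate 6, 0.0064 without the 2 farthest arrays, 0.177 with the fibroblast score, 0.075 within E2F2 null, 0.252 within E2F3 heterozygous and 0.155 within wild-type tumours. Rfc3 had 0.133 with quantile normalization, 0.285 with 1 mean per label number, 0.364 within E2F1 null and 0.0795 within wild-type tumours. Mcm3 had -0.209 without E2F1 null replicate 6, -0.194 without the 2 farthest arrays, -0.301 with the fibroblast score, and -0.398 and -0.208 within E2F2 null and E2F3 heterozygous tumours. On the fibroblast score, Tyms had -0.0211 with quantile normalization. Slbp had 0.0046 without E2F1 null replicate 6, 0.0175 without the 2 farthest arrays and 0.094 within E2F2 null, where Pole had 0.128. No paired analysis was possible because the replicate numbers only name tumours and pair none across backgrounds.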

Other observations

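Genes at the opposite end from the members were not on any list. Of 8714 tested genes, the lowest r with the members' mean over the 80 tumours was that of Stx5a (-0.76), a syntaxin of the Golgi, followed by Creb3 (-0.76), a membrane-bound transcription factor of the secretory pathway, Dnajb9 (-0.76), a chaperone of the endoplasmic reticulum, and Atp6ap1 (-0.75), an accessory subunit of the proton pump of acidic organelles. They were named after their values were seen. These are descriptions over arrays that share tumours and scaling.

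Within the list of other replication factors, the genes with the lowest r were Pold4 (-0.34), Samhd1 (-0.18), which breaks down deoxynucleotides, and Top1 (0.07), the topoisomerase that also serves transcription, while Top2a had 0.88 and Exo1 0.87.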
